A study of Homo sapiens with 3 samples.

Results

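The genes described here code for the claudins and other proteins of the tight junction, the belt of contacts that seals neighbouring epithelial cells to each other. They were taken from a list of 9 genes: CLDN1, CLDN4, CLDN7 and CLDN12, the membrane proteins OCLN, MARVELD2 and F11R, and the cytoplasmic proteins TJP1 and CGN. Every probe that the platform annotation assigned to any of them was used, which gave 11 probes for 8 of the 9 genes, out of 20044 genes named on the arrays. F11R, a junctional adhesion molecule, had no named probe here and was not analysed. Expression was measured on 3 Illumina HumanHT-12 V4 BeadChip arrays of H2030-BrM3 cells, a subline of the human lung adenocarcinoma line H2030 obtained by selection for growth as brain metastases. The cells of 1 array carried hairpin 1 against PARP1, those of another carried hairpin 2 against PARP1, and those of the last carried a non-targeting hairpin and are called the control. All were grown in RPMI medium with fetal bovine serum. Nothing in the labels says whether the cells were clones, or whether the arrays came from separate cultures, so the p-values rest on the spread between these arrays alone, which may be technical. The 3 arrays lay at different positions of the same BeadChip, and position and hairpin cannot be told apart.

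In a tight junction, claudins form the strands that seal the space between cells or let chosen ions through it, and occludin (OCLN) and tricellulin (MARVELD2) join these strands. Scaffolds such as TJP1, the first zonula occludens protein, bind the tails of most claudins and tie the strands to actin, while cingulin (CGN) links the scaffold to actomyosin and its regulators. In carcinomas, claudins are known to be gained in some tumours and lost in others, and loss of several of them marks cells that have given up part of their epithelial identity. As RNA of whole cultures was measured, fewer cells that express a gene and less RNA per cell cannot be told apart.

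The promoter windows of CLDN7 and CLDN1 are shown because, among the detected junction probes, theirs lay furthest below and furthest above the control by mean log2 change. The windows hold the 250 bases upstream of the annotated start, taken from RefSeq on GRCh38.p14 and read 5′ to 3′ on the gene's strand. Capitals mark the E-box CAGGTG on either strand, the hexamer bound by the Snail and ZEB repressors, which in mouse epithelial cells are known to switch off claudin and occludin genes. CLDN7 is read from chr17:7262479-7262728 on the minus strand and CLDN1 from chr3:190322447-190322696 on the minus strand.
CLDN7: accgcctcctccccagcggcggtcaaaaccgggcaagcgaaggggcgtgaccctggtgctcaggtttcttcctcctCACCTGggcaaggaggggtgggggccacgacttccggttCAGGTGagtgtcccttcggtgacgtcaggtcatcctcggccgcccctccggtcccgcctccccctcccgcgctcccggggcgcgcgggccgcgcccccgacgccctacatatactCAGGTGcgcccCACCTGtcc
CLDN1: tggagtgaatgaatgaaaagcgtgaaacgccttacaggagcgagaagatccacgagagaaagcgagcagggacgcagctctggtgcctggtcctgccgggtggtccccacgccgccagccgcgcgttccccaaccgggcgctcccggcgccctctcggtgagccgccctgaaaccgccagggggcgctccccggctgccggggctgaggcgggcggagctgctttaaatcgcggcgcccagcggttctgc
The CLDN7 window held 4 matches, 2 as CAGGTG and 2 as CACCTG, starting 174, 135, 20 and 9 bases before the start, and the CLDN1 window held none. A second annotated CLDN7 start had no match in its window. RefSeq listed 13 windows for 8 of the genes, and 4 of the windows (30.8%), from CLDN7, OCLN and TJP1, held the hexamer, against 17.5% of 35116 promoters in the same table. These 4 windows had a GC content of 66.8% to 71.2%, against a median of 58% for all promoters, which were not matched for it. The 2 from OCLN overlap each other only at their ends, and their matches are separate sites. At least 4 matches were found in 43 of the 35116 promoters (0.12%). The cut of 4 was taken from the CLDN7 window itself, so this share is a description and not a test. A match describes the letters of a window and not a bound site.

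The arrays held the signals of 47309 probes, with medians of 152.2, 161.7 and 153.6 for hairpin 1, hairpin 2 and the control, and 34.6% to 36.8% of probes lay above background, meaning a detection p under 0.01 against negative control probes. PARP1 gave signals of 1312 with hairpin 1, 765.8 with hairpin 2 and 4365 in the control, or 28.3% and 12.9% of the control level after normalization. After normalization and a filter for probes above background on at least 1 array, 18263 probes were tested in limma (2 hairpin arrays against 1 control array), and 2 (0.011%) passed a Benjamini-Hochberg adjusted p of 0.05, PARP1 and CTBP2, both lower, although limma called 0 when each gene was represented by its brightest probe, with 375 at an unadjusted p under 0.05. The limits of this design are that the spread is known only from the difference between hairpins, with 1 residual degree of freedom, and that the median 95% half-width was 0.36 on the log2 scale. Of the epithelial markers, EPCAM, KRT8 and KRT18 were above background on all 3 arrays and CDH1, KRT7 and KRT19 on none. The lung adenocarcinoma markers NKX2-1, NAPSA and SFTPB were above background on none, and of 7 mesenchymal markers VIM, CDH2 and TWIST1 were above background on all 3. None of 5 endothelial and 3 measured blood markers was above background. Of 4 fibroblast markers, COL1A1 and COL3A1 were above background on all 3 arrays, COL1A1 only just. Its normalized log2 intensities were 5.78, 5.76 and 5.70 on the hairpin 1, hairpin 2 and control arrays. The lowest of any detected probe were 5.74, 5.53 and 5.63. The signals of the brightest probes summed over the 6 epithelial markers to 2626 with hairpin 1, 2849 with hairpin 2 and 2628 in the control, and over the 7 mesenchymal markers to 15329, 16612 and 16154, of which VIM made up 13340, 14485 and 13963. CDH2 and TWIST1, which add little to that sum, had log2 ratios of 0.82 and −0.01 and of −0.41 and −0.38. Both sums are of signals before normalization and include markers that were not above background. After normalization the brightest probes of KRT18, KRT8 and EPCAM had log2 ratios of −0.18 and −0.28, of 0.05 and −0.12 and of 0.06 and 0.05. The part of these markers in the junction values was not tested.

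Of the 11 junction probes, 8 probes of 6 genes passed the filter, and each of these 8 was above background on all 3 arrays, so none entered through 1 group alone. The plot of deposited signals shows CLDN1, CLDN12, TJP1 and CGN well clear of the detection limit, CLDN7 and MARVELD2 just above it, and CLDN4 and OCLN below it. CLDN7 had the lowest values relative to the control and CLDN1 the highest, and none of the 8 junction probes passed the adjusted limma test.

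**Figure D1:**
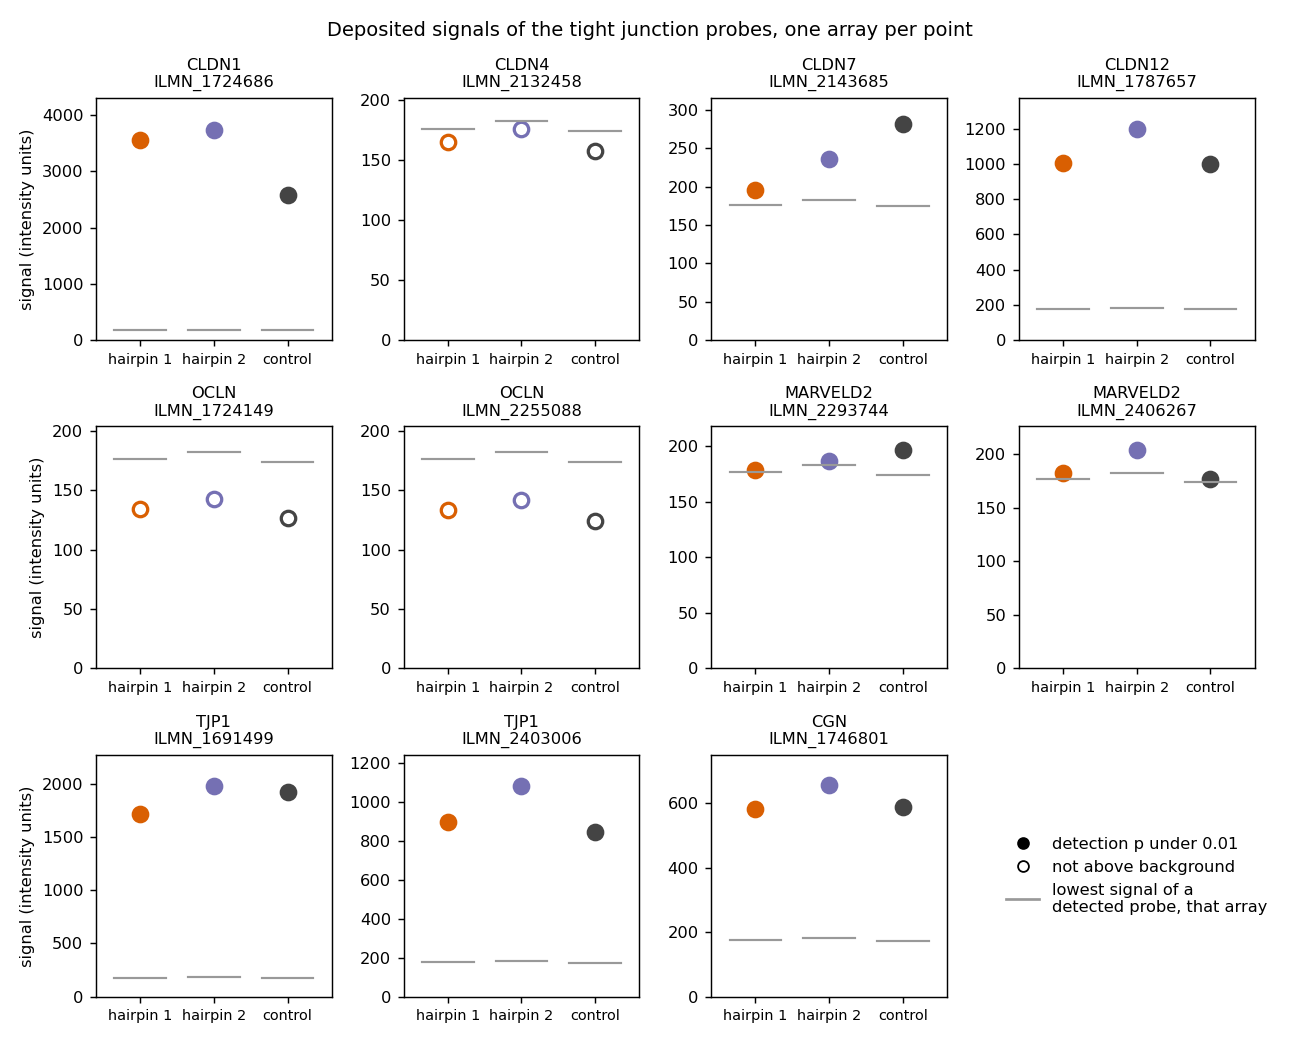
Deposited signal (linear intensity units, y axis) of each of the 11 junction probes on the hairpin 1, hairpin 2 and control arrays, 1 point per array, with open points for signals not above background and grey bars at the lowest signal of any detected probe on that array. CLDN7 gave 196.3 and 236.3 with the hairpins against 281.9 in the control, close to the grey bars, while CLDN1 gave 3562 and 3738 against 2579, far above them.

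CLDN7, a claudin that also lies along the lateral membrane, where it binds EPCAM, was measured by 1 probe (ILMN_2143685). Its signal was 196.3 with hairpin 1, 236.3 with hairpin 2 and 281.9 in the control. Both hairpin arrays were thus below the control, hairpin 1 further than hairpin 2. On the log2 scale after background correction the intensities were 6.22, 6.55 and 7.37, so that hairpin 1 left 45.3% and hairpin 2 left 56.9% of the control level. The mean log2 change was −0.98 ± 0.24 (moderated SE, n = 2 against 1; 95% interval −1.49 to −0.47), a mean 1.97-fold lower, with a limma p of 0.000884 before adjustment and 0.997 after it. CLDN7 therefore did not pass the test over all probes. The gap between hairpins was 0.33 (log2, hairpin 2 minus hairpin 1), less than the smaller of the log2 ratios to the control. Hairpin 2, which left less PARP1 than hairpin 1, gave the smaller distance of CLDN7 from the control.

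CLDN7 was the 1 junction probe of 8 at least 1.5-fold lower with both hairpins, and 0.969% of all tested probes met that rule. No junction probe was at least 1.5-fold higher with both, as 0.575% of all tested probes were. Among the 15706 probes above background on all 3 arrays, where 0.166% met it, CLDN7 had the fifth largest of the smaller ratios on the lower side. As the members were chosen with earlier results of these data known, this rank is a description and not a test. The size of the CLDN7 difference varied with the treatment of background. Its signals were 1.11, 1.29 and 1.62 times the lowest signal of a detected probe on the hairpin 1, hairpin 2 and control arrays. As deposited, the signals were 69.6% and 83.8% of the control. On the deposited normalized values CLDN7 stood at 69.6% and 76.3%, a mean log2 change of −0.46 (limma adjusted p = 0.978), and without background correction the mean log2 change was −0.47. CLDN7 passed the 1.5-fold rule in 11 of 13 settings, and these last 2 were the exceptions. Filters, probe summaries and variance priors could not move the ratios of this gene, which has 1 probe. Of the alternatives that did change its values, it passed with an offset of 50, median scaling and cyclic loess.

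**Figure D2:**
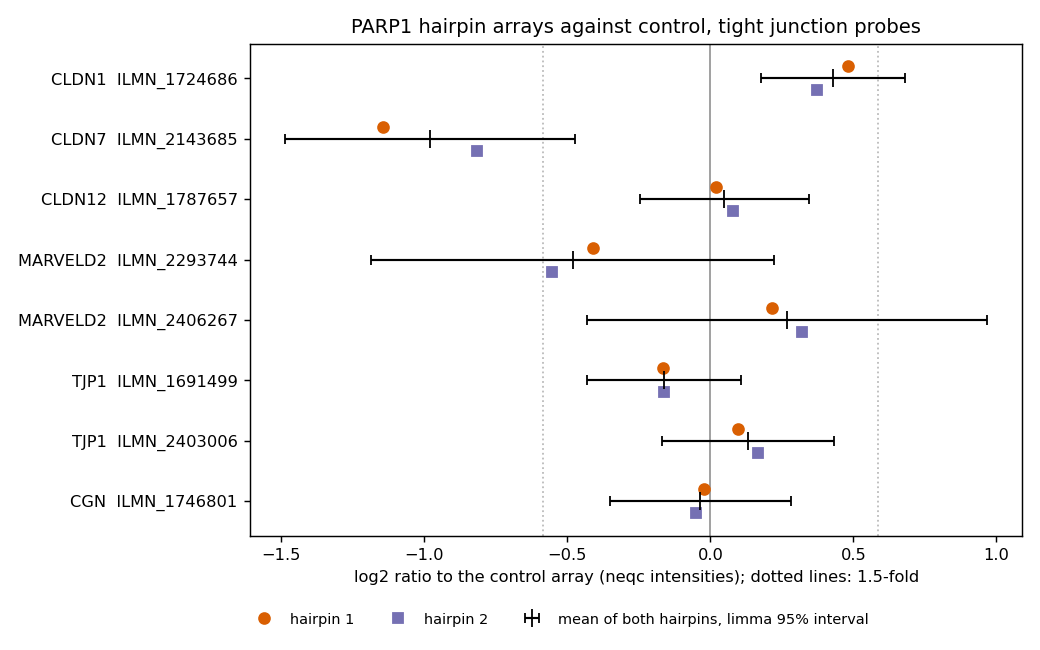
Log2 ratio to the control array after background correction and quantile normalization (x axis) for the 8 junction probes above background, with circles for hairpin 1, squares for hairpin 2, and bars for the limma mean and its 95% interval. CLDN7 lies left of the dotted 1.5-fold line with both hairpins, CLDN1 lies right of 0 by 0.48 and 0.37, and the intervals of the other probes include 0.

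CLDN1, a barrier-forming claudin that mice need for a watertight skin, was measured by 1 probe (ILMN_1724686). Its signal was 3562 with hairpin 1, 3738 with hairpin 2 and 2579 in the control. Both hairpin arrays were above the control and close to each other, on the opposite side from CLDN7. The normalized log2 intensities were 11.80, 11.69 and 11.32, or 139.6% and 129.5% of the control. The mean log2 change was 0.43 ± 0.12 (moderated SE, n = 2 against 1; 95% interval 0.18 to 0.68), a mean 1.34-fold higher, with a limma p of 0.0025 before adjustment and 0.997 after it. CLDN1 did not pass the test over all probes and stayed under 1.5-fold with either hairpin. Its signal was over 14 times the lowest detected signal on every array, and its log2 change stayed between 0.41 and 0.48 in all 12 alternatives. Only the other background corrections and normalizations could move that change, as CLDN1 has 1 probe. CLDN1 and CLDN7 were the 2 junction probes with an unadjusted limma p under 0.05, which 4.3% of all tested probes had. The members were chosen with earlier results of these data known, so this count is a description and not a test.

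CLDN12, a claudin whose tail lacks the motif by which most claudins bind scaffolds, gave signals of 1008 with hairpin 1, 1199 with hairpin 2 and 999.5 in the control (ILMN_1787657). After normalization its log2 intensities were 9.86, 9.92 and 9.84, and the arrays nearly coincided. The mean log2 change was 0.05 (limma 95% interval −0.25 to 0.34), whose limits lay under 1.5-fold in both directions. CLDN4, a sealing claudin and a receptor for the enterotoxin of Clostridium perfringens, gave signals of 165.2 with hairpin 1, 175.8 with hairpin 2 and 157.5 in the control (ILMN_2132458). Its detection p was 0.0247, 0.0195 and 0.0766, so it was not above background on any array and no fold is given.

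The other membrane proteins of the strand were dim. OCLN, the strand protein occludin, was not above background with either probe. Its signals were 134.4, 143.0 and 126.6 with ILMN_1724149 and 133.5, 141.9 and 124.3 with ILMN_2255088 on the hairpin 1, hairpin 2 and control arrays. Each lay below the median of all probes of its array, so OCLN was not detectable at this sensitivity. MARVELD2, or tricellulin, which sits where the corners of 3 cells meet, was above background throughout with both probes, but its signals were at most 1.13 times the lowest detected one.

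The MARVELD2 probes lay on opposite sides of the control. ILMN_2293744 gave 178.0 with hairpin 1, 186.7 with hairpin 2 and 196.6 in the control, with log2 ratios of −0.41 and −0.56 and a mean of −0.48 ± 0.33 (limma SE, n = 2 against 1). ILMN_2406267 gave 182.9, 204.0 and 176.7, with log2 ratios of 0.21 and 0.32 and a mean of 0.27 ± 0.33. Both probes are annotated to the same transcript. They differed from each other by 0.62 with hairpin 1 and 0.88 with hairpin 2 on the log2 scale, and both limma intervals included 0 (−1.19 to 0.22 and −0.43 to 0.97). No direction can be given for MARVELD2 from these probes, and their mean was −0.11.

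The cytoplasmic proteins were bright, and their values lay near the control. TJP1 was measured by 2 probes annotated to different transcripts. ILMN_1691499 gave signals of 1713 with hairpin 1, 1973 with hairpin 2 and 1922 in the control. Its normalized log2 ratios were −0.16 and −0.16, a mean 1.12-fold lower (limma 95% interval of the log2 change −0.43 to 0.11). ILMN_2403006 gave signals of 898.3, 1083 and 844.4, with log2 ratios of 0.10 and 0.17 and a mean log2 change of 0.13 (interval −0.17 to 0.43). The TJP1 probes were on opposite sides of the control with both hairpins, 0.26 and 0.33 apart on the log2 scale, and neither interval reached 1.5-fold. CGN gave signals of 579.8 with hairpin 1, 656.6 with hairpin 2 and 588.3 in the control (ILMN_1746801). Its log2 ratios were −0.02 and −0.05, and its mean log2 change of −0.04 (limma interval −0.35 to 0.28) became 0.04 with median scaling.

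As a set, the detected junction probes were split evenly. Of the 8, 4 were lower than the control with both hairpins and 4 higher with both, against 32.5% lower and 33.5% higher among all 18263 tested probes. MARVELD2 and TJP1 each gave 1 probe to either side. By the brightest probe of each gene, 3 genes were lower and 3 higher. CGN and CLDN12 were counted by sign, though their mean log2 changes were only −0.04 and 0.05. With median scaling 3 of the 8 were lower and 4 higher with both hairpins, against 20.5% lower and 41.9% higher among all probes, and CGN then differed in sign between hairpins. With quantile normalization every junction probe was on the same side with both hairpins, as were 66% of all tested probes. Both ratios share the control array. The median log2 change of the 8 probes was 0.01, and that of all tested probes was 0.00. The median size of the change, whatever its sign, was 0.22 for the junction probes and 0.12 for all probes. These medians were not matched for intensity, the CLDN7 and MARVELD2 probes were dim, and MARVELD2 and TJP1 counted with both of their probes. The median gap between hairpins was 0.09 for the 8 junction probes and 0.15 for all probes, and the gap of CLDN7, at 0.33, was above both. At least 1.5-fold apart were 0 of the 8, where 4.99% of all tested probes and 1.82% of those above background on all 3 arrays were, so that a count of 0 among 8 is near the background. The junction probes therefore spread along the diagonal in the plot of both ratios, with CLDN7 at one end and CLDN1 at the other.

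**Figure D3:**
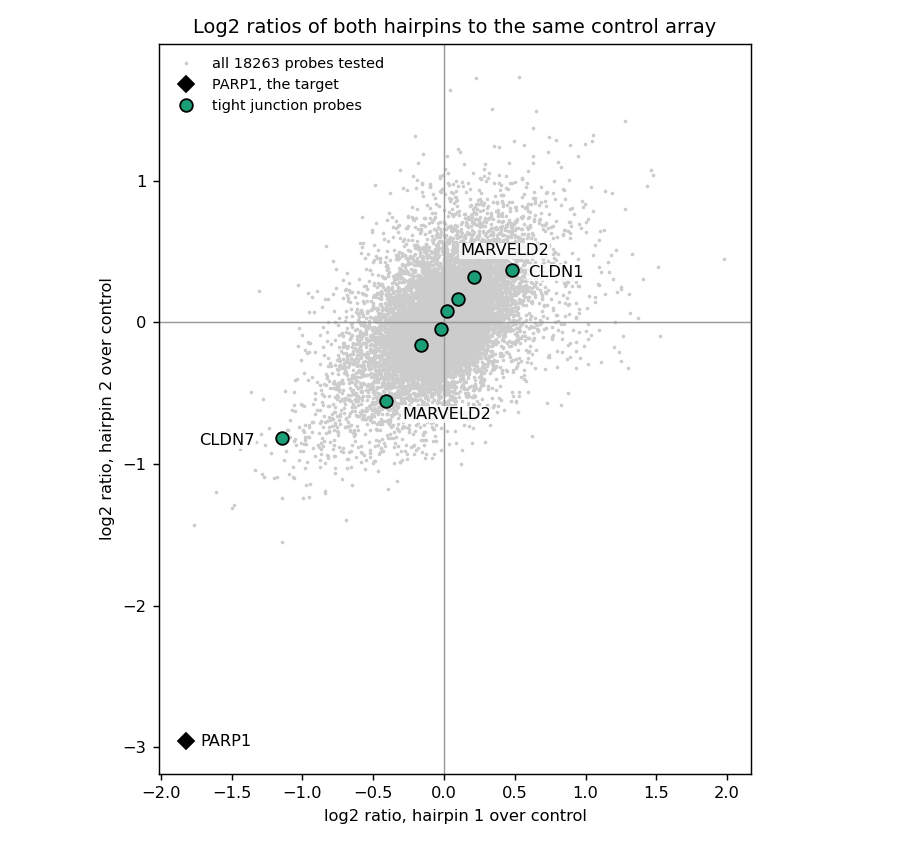
Log2 ratio of hairpin 1 (x axis) and hairpin 2 (y axis) to the same control array for all 18263 tested probes (grey), the 8 junction probes (green) and PARP1 (black diamond). CLDN7 lies at −1.14 and −0.81, the MARVELD2 probes lie on both sides of 0, and PARP1 lies apart at −1.82 and −2.95.

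The genes with the pattern most like that of CLDN7 were dim as well. By the distance between pairs of log2 ratios, over 9696 other genes above background on all 3 arrays and 3 arrays in all, the nearest was SUN3 (ratios −0.91 and −0.64, distance 0.29), a protein of the nuclear envelope. It was followed by CCHCR1 (−0.90 and −0.62), SMIM10L2B (−0.82 and −0.94), DUSP13B (−0.78 and −0.68) and C15orf40 (−0.75 and −0.77). Their control intensities lay between 6.58 and 7.80 on the normalized log2 scale, and that of CLDN7 was 7.37.

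Other genes of cell junctions were examined in lists, each gene by its brightest probe. Their p-values are those of the limma fit over all 18263 probes, in which none of their genes passed after adjustment. PARP1 and CTBP2 were 0.0187% of the 10692 brightest probes in that fit, and a fit on the brightest probes alone called 0. Before adjustment, 5 of the 54 list genes that passed the filter had a limma p under 0.05, against 3.54% of all 10692 genes. These were AMOTL2, SYMPK, WNK1, TWIST1 and OVOL2. The lists too were chosen with earlier results of these data known, so their count is a description and not a test. No list gene met the 1.5-fold rule, which 0.608% of all genes met on the lower side and 0.365% on the higher. Of 19 other claudins, 6 passed the filter, and 3 of the 6 on every array. 1 was lower with both hairpins, 1 higher with both and 4 differed in sign between hairpins, against 31.4% lower and 33.8% higher with both over all genes. The higher member was CLDN15, a claudin that forms cation pores, with log2 ratios of 0.19 and 0.17. The lower one was CLDN3, above background on some arrays only. The median log2 change of the list was 0.01.

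Of 13 other membrane proteins of the junction, 6 passed, of which 3 were lower and 3 higher with both hairpins. EPCAM, the partner of CLDN7, had log2 ratios of 0.06 and 0.05 for ILMN_2160210, its brightest probe, and 0.08 and 0.05 for ILMN_2160209, but −0.46 and −0.07 for ILMN_3249032. CXADR, the coxsackievirus and adenovirus receptor, had −0.06 and −0.11. JAM3, a junctional adhesion molecule, had 0.13 and 0.15. LSR, the angulin that recruits tricellulin, had 0.04 and 0.07 for ILMN_1749396 and 0.23 and 0.46 for the dimmer ILMN_2363498. IGSF5, a junctional adhesion molecule, gave signals of 172.8 with hairpin 1, 179.9 with hairpin 2 and 191.8 in the control, and CRB3, a polarity protein of the apical membrane, gave 157.8, 163.7 and 175.1. These 2 genes and CXADR are the 3 lower ones, but IGSF5 and CRB3 were above background in the control alone, so no fold is given for them.

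Of 22 scaffold and polarity genes, 14 passed, 4 lower and 3 higher with both hairpins, with a median log2 change of −0.04. AMOTL2, an angiomotin family scaffold, was the furthest, with log2 ratios of −0.35 and −0.99 (a limma p of 0.0455 before adjustment and 0.997 after it). MPDZ, a scaffold with many PDZ domains, had 0.17 and 0.32, the polarity kinase PRKCI −0.17 and −0.20 and its partner PARD6G −0.26 and −0.12. Of 13 adherens junction genes, 7 passed, 0 lower and 2 higher with both. The higher ones were the catenins CTNNB1 (0.02 and 0.01 for ILMN_1746396) and JUP (0.02 and 0.00 for ILMN_1733811). ILMN_1757350, a CTNNB1 probe nearly as bright, had −0.11 and 0.10, so no direction is given for CTNNB1. ILMN_1651617 of CTNNB1 was above background in the control alone, and ILMN_1741970 of JUP with hairpin 2 and in the control. The furthest of the 7 by mean log2 change was CDH2, N-cadherin, with signals of 342.9 with hairpin 1, 275.8 with hairpin 2 and 248.7 in the control. Its log2 ratios of 0.82 and −0.01 differed between the hairpins, with a mean of 0.41 (a limma p of 0.144 before adjustment and 0.997 after it).

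Of 20 genes of junction signalling and the cytoskeleton, 17 passed, 6 lower and 6 higher with both hairpins, with a median of 0.03. SYMPK, symplekin, a protein of messenger RNA 3′ end processing that was first found at tight junctions, had normalized log2 intensities of 7.01 with hairpin 1, 6.91 with hairpin 2 and 7.59 in the control. Its log2 ratios were −0.58 and −0.68 (a limma p of 0.00589 before adjustment and 0.997 after it). The kinase WNK1 had 0.27 and 0.51 for ILMN_1876924 but −0.24 and −0.55 for ILMN_1753165, which was just above background. ARHGEF18, a RhoA activator at junctions, had 0.21 and 0.33. The small GTPase RAC1 had 0.18 and 0.22 for ILMN_2359789 but −0.11 and −0.18 for ILMN_1652445. The WNK1 and RAC1 probes thus disagreed in direction, as those of TJP1 and MARVELD2 did.

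Of 15 transcription and splicing regulators of epithelial genes, 4 passed, 3 lower and 1 higher with both hairpins, with a median log2 change of −0.23 against 0.00 for all genes. TWIST1, a repressor of epithelial genes, had normalized log2 intensities of 9.92 with hairpin 1, 9.96 with hairpin 2 and 10.33 in the control, or log2 ratios of −0.41 and −0.38 (a limma p of 0.011 before adjustment and 0.997 after it). OVOL2, which opposes such repressors, had −0.39 and −0.36. ELF3, an epithelial activator, had −0.13 and −0.03, and TWIST2 had 0.04 and 0.14. SNAI1, SNAI2, ZEB1 and ZEB2, which bind the hexamer marked in the promoter windows, had no probe above background on any array. They were not detectable at this sensitivity, which does not show that they were absent. Their part in the junction values was not tested. The plot of these lists shows 42 of 54 genes within 0.2 of the control on the log2 scale.

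**Figure D4:**
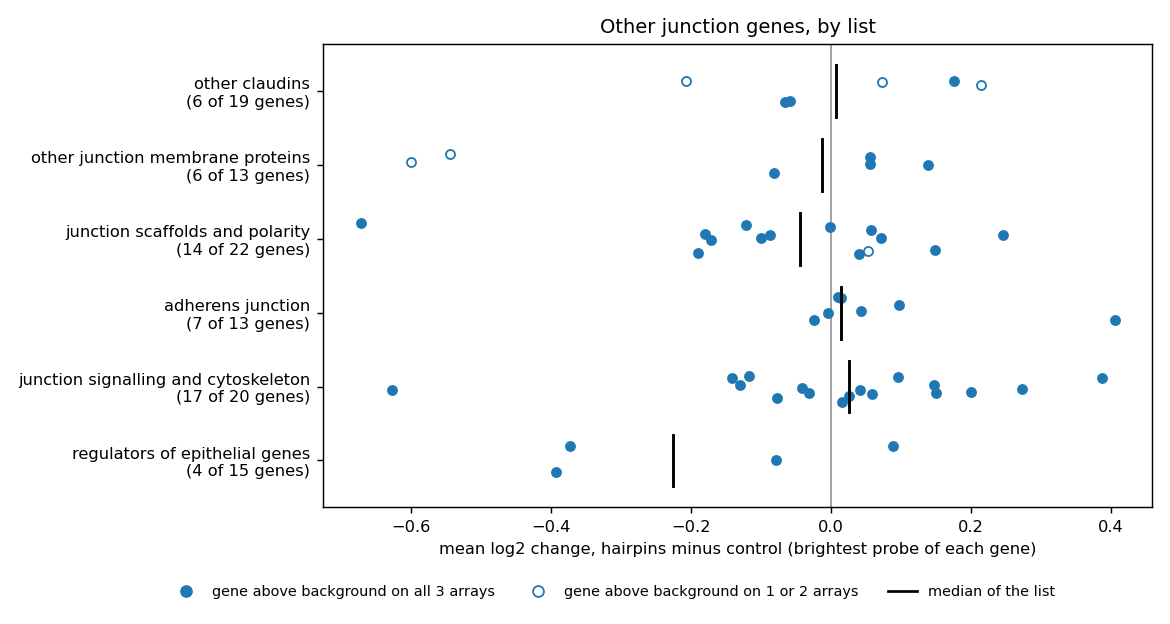
Mean log2 change of the hairpin arrays against the control (x axis) for genes of 6 lists, by the brightest probe of each gene, with filled points for genes above background on all 3 arrays, open points for the rest, and a bar at each list's median. The medians lie between −0.23, for the regulators with 4 measured genes, and 0.03, for junction signalling.

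The plot of processing settings shows which junction values depended on background correction. Over the settings in which each was measured, the log2 change ran between 0.04 and 0.11 for CLDN12, between −0.17 and −0.02 for ILMN_1691499 of TJP1, between 0.11 and 0.21 for ILMN_2403006 of TJP1 and between −0.04 and 0.04 for CGN. The TJP1 value of −0.02 is that of its averaged probes. Those of the dim CLDN7 and MARVELD2 probes were smaller in size with an offset of 50, at −0.76 for CLDN7, and smaller again without background correction. CLDN7 was lower than the control in all 13 settings and CLDN1 higher in all 13. For these genes, filters, probe summaries and variance priors could change the p-values but not the log2 changes. The lowest limma adjusted p was 0.441 for CLDN7 and 0.511 for CLDN1, both without a filter on dim probes.

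**Figure D5:**
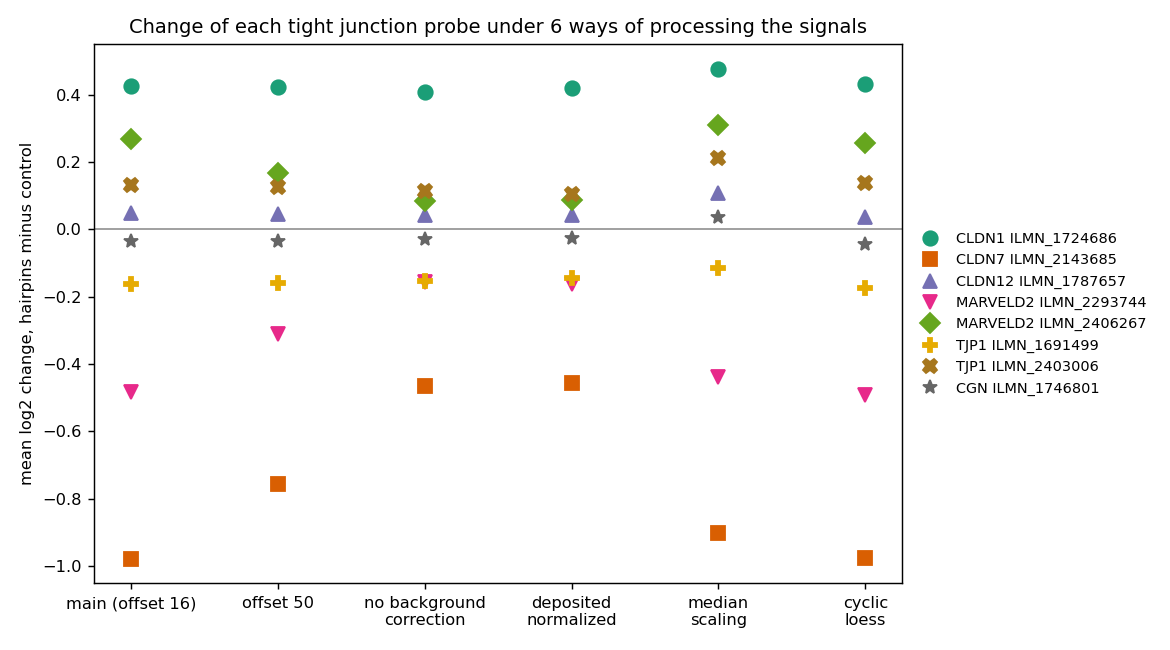
Mean log2 change of the hairpin arrays against the control (y axis) of the 8 junction probes under 6 ways of processing the signals (x axis), 1 symbol per probe. CLDN7 moves between −0.98 and −0.46, and CLDN1 stays between 0.41 and 0.48.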

How the data were processed

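Total RNA of 3 samples of H2030-BrM3 cells was labelled with biotin and measured on Illumina HumanHT-12 V4 arrays, per the labels. The authors deposited a bead-averaged intensity per probe, on a linear scale, with a detection p-value per probe beside it, per the file headers. GenomeStudio is named in the submitters' processing notes, with no version or settings. A second deposited table holds intensities whose sorted columns differed between arrays by at most 0.706, so quantile normalization was inferred from the values.

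Background correction and quantile normalization used neqc of limma 3.58.1 in R 4.3.3 (offset 16, log2 scale). The 18263 of 47309 probes detected (p under 0.01) on 1 array or more were tested with lmFit and eBayes (intensity trend, a median of 14.45 prior degrees of freedom) and Benjamini-Hochberg adjustment over all of them. The fit gives the lone control the spread of the hairpin arrays, which includes any difference between the effects of the hairpins. An SE is limma's moderated one. With 1 residual degree of freedom, it comes mostly from other probes of like intensity and not from the spread of that probe. With 3 arrays, their number sets the precision. The fit was tested on simulated data in which all 3 arrays had the same spread, so the spread of the real control was not tested. Of the probes, 30106 had 1 gene symbol in the platform annotation, 17203 had no single symbol, and 8 of these were listed with several genes. RefSeq names (GRCh38.p14) updated 0 symbols.

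The members and lists were chosen with earlier results of these data known. All member probes are named, with up to 4 genes of each junction list above background on all 3 arrays, those with the largest smaller ratio on the same side of the control with both hairpins, and the 5 genes nearest to CLDN7. CLDN3, CRB3, IGSF5, CDH2, further probes of a gene and the promoter hexamer were added after the values were seen. The alternatives were other background corrections, normalizations, filters, probe summaries, variance priors and fold thresholds, and leaving out each hairpin array.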

Additional observations from a re-analysis of the deposited data

How the results depend on the processing

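No paired analysis was possible because the groups share fewer than 2 replicate numbers and the control is 1 array. The number of probes that passed the adjusted limma test was 2 in the setting reported (PARP1 and CTBP2), the same 2 genes with an offset of 50, cyclic loess, uncorrected background, the authors' normalized table and a detection p under 0.05, 3 with median scaling (CD55, higher, in addition), 3 without a filter on dim probes (ELOC, lower, in addition), 1 with probes averaged per gene, and 0 with the brightest probe per gene, with detection on all 3 arrays, without the intensity trend and with the robust variance prior, with 375, 625, 951 and 778 at an unadjusted p under 0.05 in these 4. The number at least 1.5-fold from the control with both hairpins was 282, and it was 104 with the brightest probe per gene, 99 with averaged probes, 48 with detection on all 3 arrays, 450 with a detection p under 0.05, 457 without a filter, 25 with an offset of 50, and 2 each with uncorrected background and with the authors' normalized table. At 1.2-fold it was 1955 and at 2-fold 21. The number at least 1.5-fold apart between hairpins was 912, and it was 171 with an offset of 50, 18 with uncorrected background and 14 with the authors' normalized table. Probes on the same side of the control with both hairpins numbered 12056, and 6971 with the brightest probe per gene, 6982 with averaged probes and 31455 without a filter, as other numbers of probes were then tested. Median scaling moved the share of lower probes among those on the same side with both hairpins to 32.9%, against 49.2% as reported, with a median ratio of 0.13 for hairpin 2. Among junction probes, 2 reversed, CGN to 0.04 with median scaling and MARVELD2 (ILMN_2406267) to −0.11 with the mean of its probes, and none of the 8 passed the adjusted limma test in any setting. Without hairpin 1 or hairpin 2 no test was possible, and the values are the ratios of the other hairpin. These had to keep the sign for all 8 probes, as each probe was on the same side of the control with both hairpins. Signal over background limits CLDN7 and MARVELD2. CLDN4 and OCLN were not above background at a detection p under 0.01 on any array, so no change is given for them in any setting.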
